A study of Homo sapiens with 3 samples.

Results

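A set of 10 imprinted genes was followed through 3 RNA sequencing libraries of UM-UC-3, a line grown from a human bladder tumour. The genes were chosen by name, as the rows MEG3, H19, DLK1, PEG3, PEG10, MEST, CDKN1C, PHLDA2, GRB10 and KCNQ1OT1 of a table of 50867 genes, and each name matched 1 row. Of the 10 genes, 7 encode proteins and 3 (MEG3, H19 and KCNQ1OT1) give long non-coding RNAs. All libraries came from UM-UC-3 cells infected with lentivirus and kept under puromycin for 2 weeks. The group shBLACAT2 (n = 2) holds 1 library of cells with shRNA 1 and 1 library of cells with shRNA 2, which target the long non-coding RNA BLACAT2 independently. The group shControl (n = 1) holds 1 library of cells with a scramble shRNA. The polyA+ RNA libraries held 17670199, 16216947 and 16424422 counts for shRNA 1, shRNA 2 and shControl, and nothing in the labels says that they came from repeated cultures.

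At an imprinted gene one parental allele is silenced by DNA methylation and chromatin marks that were set in the germline, so that RNA comes mainly from the other parent's copy. Imprinted genes lie in clusters around control regions, and a cluster often holds both coding genes and a long non-coding RNA expressed from the opposite parent. Many of them act on fetal and placental growth, and their silencing is often altered in cancers. The counts used here do not tell the alleles apart, so the values below are total RNA levels and say nothing of which allele was read.

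The depletion that the labels name was checked first. BLACAT2, listed as LINC00958, had 816 counts with shRNA 1, 1062 with shRNA 2 and 938 in shControl, which was 73.5% of the control level with shRNA 1 (ratio 0.735, 95% counting interval 0.668 to 0.808) and no detectable difference with shRNA 2 (ratio 0.996, interval 0.911 to 1.09). A direction given below is thus that of the library labelled shRNA 1 or shRNA 2, whatever its BLACAT2 level. Of 16 epithelial and urothelial markers 14 were tested. With both hairpins 4 were 2-fold or more higher (CDH1, ELF3, UPK1B and UPK2), against 5.29% of all genes tested. By as much 1 was lower (TP63), against 4.50% of all genes. TP63 passed the filter for testing, a mean of at least 1 CPM over all libraries, only through shControl, where it was high. KRT7 had 20236, 13229 and 19944 counts in shRNA 1, shRNA 2 and shControl, ELF3 had 3083, 2542 and 373, and TP63 had 8, 13 and 85. Among the uroplakins UPK1B had 2311, 923 and 306 counts and UPK2 had 108, 104 and 35, while UPK1A and UPK3A each had 0, 1 and 1. Leukocyte markers summed to 1.45, 18.8 and 3.17 TMM-scaled CPM in shRNA 1, shRNA 2 and shControl, most of it in shRNA 2 from ITGAM at 6, 288 and 19 counts, while CD3D and CD68 had no count in any library. Transcripts of the mitochondrial genome took 4.58%, 2.51% and 3.88% of the counts in shRNA 1, shRNA 2 and shControl, and FN1 took 1.72%, 1.67% and 5.53%.

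MEG3 and MEST were the 2 of the 10 genes whose levels were lower by 2-fold or more in both hairpin libraries, and no gene of the set was higher by as much in both. PEG3 and PEG10 were about 2-fold higher with shRNA 1 alone, H19 was higher with shRNA 2 alone, and GRB10 was lower with shRNA 1 and higher with shRNA 2. KCNQ1OT1, CDKN1C and PHLDA2 stayed within 2-fold of the control with both hairpins, and DLK1 was hardly detected. Levels are given as CPM, counts relative to library size, scaled with edgeR's TMM factors (TMM-scaled CPM), ratios as the hairpin library over shControl with exact 95% counting intervals, and log2 folds with a prior count of 2 added to the counts. The intervals leave out every error but that of counting, as no molecular identifiers were read. Each hairpin has 1 library, so a single hairpin's fold has no replicate check.

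**Figure D1:**
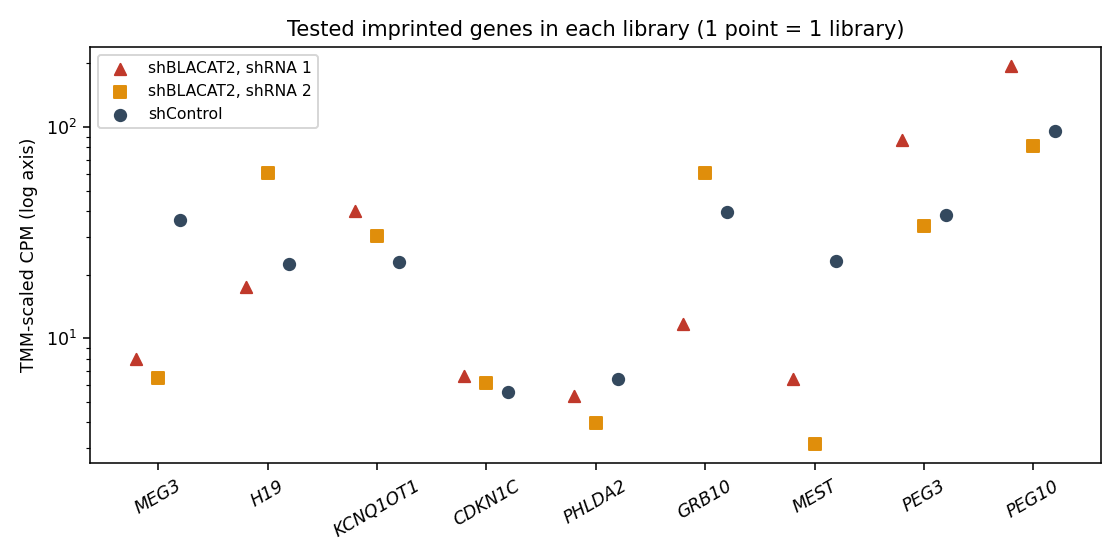
TMM-scaled CPM (log axis) of the 9 imprinted genes that passed the expression filter, with 1 point per library for shRNA 1, shRNA 2 and shControl from left to right. MEG3 and MEST have both hairpin points below the control point, while PEG3 and PEG10 have only the shRNA 1 point above it; DLK1, with 0, 0 and 2 counts, is not drawn.

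MEG3 is a maternally expressed long non-coding RNA of the DLK1 to DIO3 cluster, known for raising p53 activity and for being silenced in many tumours. MEG3 (ENSG00000214548; hg38, chromosome 14, 100779410 to 100861031, plus strand; 48 annotated transcripts) had 142 counts with shRNA 1, 111 with shRNA 2 and 546 in shControl, or 7.93, 6.45 and 36.1 TMM-scaled CPM. Both hairpin libraries lay far below the control, and they differed little from each other. The level was 4.55-fold lower with shRNA 1 (ratio 0.220, interval 0.181 to 0.265) and 5.59-fold lower with shRNA 2 (ratio 0.179, interval 0.144 to 0.220). The log2 folds were −2.17 and −2.46, with a mean of −2.32 ± 0.21 (SD, n = 2). Set against each other, shRNA 1 over shRNA 2 gave a ratio of 1.23 with an interval of 0.952 to 1.59, which holds 1.

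MEST, the paternally expressed mesoderm-specific transcript, encodes a protein of the alpha/beta hydrolase family. MEST (ENSG00000106484; chromosome 7, 130486171 to 130506296, plus strand; 17 annotated transcripts) had 115 counts with shRNA 1, 54 with shRNA 2 and 353 in shControl, or 6.42, 3.14 and 23.3 TMM-scaled CPM. Both hairpin libraries were again below the control, with shRNA 2 the lower of them. The level was 3.63-fold lower with shRNA 1 (ratio 0.275, interval 0.221 to 0.341) and 7.43-fold lower with shRNA 2 (ratio 0.135, interval 0.0991 to 0.180). The log2 folds of −1.84 and −2.85 had a mean of −2.34 ± 0.71 (SD, n = 2). The hairpins differed beyond counting error, with a ratio of 2.05 for shRNA 1 over shRNA 2 (interval 1.47 to 2.88).

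Of the 9 imprinted genes tested, 2 were lower by 2-fold or more with both hairpins and 0 higher, against 4.50% and 5.29% of all 15132 genes tested. With 1 or both hairpins, 6 of the 9 lay at least 2-fold from shControl, against 26.5% of all genes. A quasi-likelihood test in edgeR, set up as shBLACAT2 against shControl, has 1 residual degree of freedom per gene, from the difference between the hairpins. It draws each gene's spread toward a trend over all genes tested, and it assumes that the lone control varies like the hairpins. For CDKN1C the SD between the hairpins was 0.08 and edgeR's SE 0.52. The p-values, two-sided and Benjamini-Hochberg adjusted over all genes tested, thus rest in part on the spread of other genes. They do not measure a spread between repeated cultures. No imprinted gene of the set passed, 2 had an unadjusted p below 0.05, and over all genes 0.0397% passed and 10.2% had an unadjusted p below 0.05. For MEG3 edgeR gave a log2 fold of −2.33 (SE 0.38), an unadjusted p of 0.00125 and an adjusted p of 0.115. For MEST it gave −2.28 (SE 0.55), an unadjusted p of 0.00744 and an adjusted p of 0.219. With DESeq2, which passed 527 genes, both genes passed at adjusted p of 0.00381 for MEG3 and 0.0368 for MEST, and limma passed neither. Over every test run the adjusted p ranged from 0.00381 to 0.747 for MEG3 and from 0.0368 to 0.747 for MEST. The other 7 tested genes had edgeR adjusted p between 0.691 and 0.978.

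**Figure D2:**
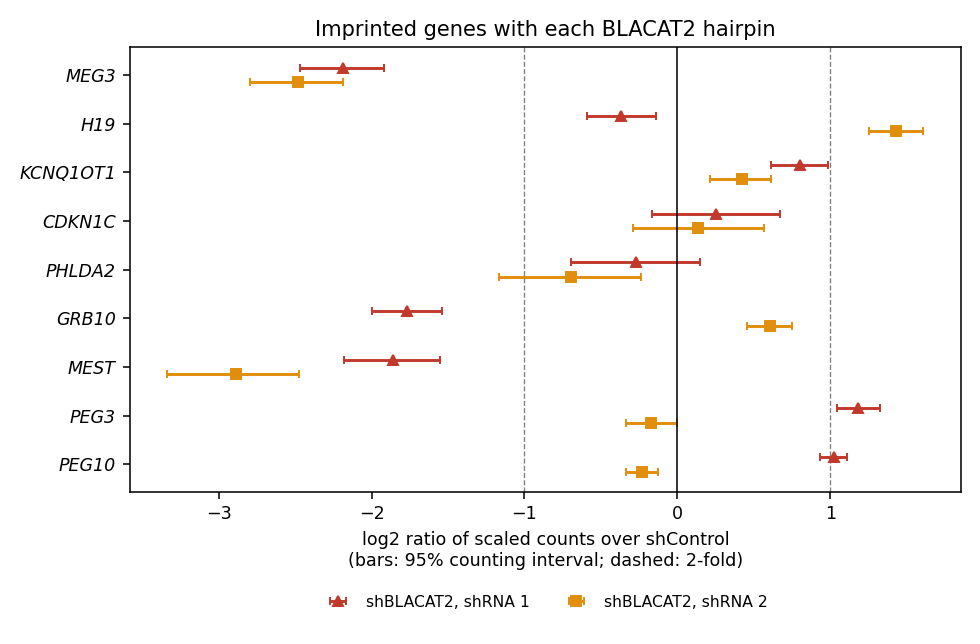
Log2 ratio of TMM-scaled counts over shControl (horizontal axis) for each tested imprinted gene, with shRNA 1 above shRNA 2 and bars for the 95% counting interval. For MEG3 and MEST both intervals lie beyond the dashed 2-fold line on the low side, and for GRB10 and H19 the hairpins lie on opposite sides of 0.

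Markers of mesenchymal cells were also lower in both hairpin libraries. Of 10 such markers 9 were lower by 2-fold or more with both hairpins, against 4.50% of all genes tested. TWIST1 was the exception at log2 folds of −0.20 and −0.48. The summed level of the 10 markers was 17950, 16040 and 69586 TMM-scaled CPM in shRNA 1, shRNA 2 and shControl, most of it FN1. Of 12 markers of fibroblasts and smooth muscle 5 were tested. COL1A1, PDGFRB and FAP were 2-fold or more lower with both hairpins, against the same 4.50% of all genes. FAP had 8, 21 and 102 counts in shRNA 1, shRNA 2 and shControl. It passed the filter for testing only through shControl, where it was high. The summed levels of the 12 markers were 23.1, 21 and 371 TMM-scaled CPM. Most of the shControl sum was COL1A1, which had 328, 162 and 5253 counts in shRNA 1, shRNA 2 and shControl. Of the other fibroblast and smooth muscle markers, ACTA2 had 38, 107 and 38 counts, MYH11 20, 28 and 26, COL1A2 0, 1 and 16, and COL3A1 0, 1 and 20. LUM had 0, 0 and 2 counts, DCN 2, 1 and 2, PDGFRA 0, 2 and 3, THY1 2, 5 and 2, and DES 0, 2 and 0. In bulk RNA fewer cells of a type and less RNA per cell cannot be told apart, and the part of these markers in the values of MEG3 and MEST was not tested.

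The promoters of the genes that were lower in both libraries are shown because their windows lie in the clusters where imprints are kept, with the promoter of H19 as the other maternally expressed non-coding RNA. Of the 10 genes 4 matched the RefSeq promoter table (GRCh38.p14), which gives 250 bases before to 50 bases after each annotated start, and of several windows of a gene the one with most CpG dinucleotides is printed, 5′ to 3′ on the gene's strand. Capitals mark the hexamer TGCCGC on either strand (GCGGCA on the other), which the zinc finger protein ZFP57 binds when methylated to keep imprints. The hexamer was found in 16.7% of 35116 promoter windows.
MEG3: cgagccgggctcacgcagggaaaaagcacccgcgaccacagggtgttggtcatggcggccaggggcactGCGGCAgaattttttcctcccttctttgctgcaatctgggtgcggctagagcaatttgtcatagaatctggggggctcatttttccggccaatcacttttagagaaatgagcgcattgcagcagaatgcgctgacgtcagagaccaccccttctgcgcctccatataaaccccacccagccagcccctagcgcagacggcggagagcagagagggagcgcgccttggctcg
MEST: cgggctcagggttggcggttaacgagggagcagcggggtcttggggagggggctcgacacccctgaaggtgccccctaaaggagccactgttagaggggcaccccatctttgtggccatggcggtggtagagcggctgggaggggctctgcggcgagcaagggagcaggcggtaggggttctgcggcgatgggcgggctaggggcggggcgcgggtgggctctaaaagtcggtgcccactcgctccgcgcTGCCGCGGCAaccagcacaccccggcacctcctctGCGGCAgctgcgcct
H19: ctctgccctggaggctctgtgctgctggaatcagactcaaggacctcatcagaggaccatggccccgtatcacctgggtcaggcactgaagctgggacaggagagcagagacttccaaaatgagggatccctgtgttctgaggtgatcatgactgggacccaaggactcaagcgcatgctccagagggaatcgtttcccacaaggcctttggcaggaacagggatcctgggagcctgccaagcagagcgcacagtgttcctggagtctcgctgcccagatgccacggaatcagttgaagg
The MEG3 window (chr14:100825858-100826157, plus strand) held 1 match and 19 CpG dinucleotides, a number that 42.9% of all windows reached. The MEST window (chr7:130491835-130492134, plus strand) held 3 matches, of which 2 overlap, and 25 CpG dinucleotides, which 32% of windows reached. The H19 window (chr11:2001217-2001516, minus strand) held 6 CpG dinucleotides, which 66.3% of windows reached, and no match. For GRB10, the gene matched besides these, the window with most CpG dinucleotides held 49, which 1.6% of windows reached, and no match. Another of its 5 windows held 1 match. The shares are over single windows, while the window given was the richest of 3 for MEG3 and of 5 for MEST and GRB10. This choice makes the shares of these genes look small. These letters are a description of the reference sequence, and no binding or methylation was measured.

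H19, a maternally expressed RNA that carries the hairpin of miR-675, is abundant in fetal tissue and known as an oncofetal RNA of bladder cancer. H19 (ENSG00000130600; chromosome 11, 1995163 to 2001470, minus strand; 12 annotated transcripts) had 313 counts with shRNA 1, 1043 with shRNA 2 and 341 in shControl, or 17.5, 60.6 and 22.5 TMM-scaled CPM. The library of shRNA 2 stood above both others, which lay close together. The ratio was 0.776 with shRNA 1 (interval 0.663 to 0.907) and 2.69 with shRNA 2 (interval 2.38 to 3.05), so that shRNA 2 over shRNA 1 was 3.47 (interval 3.05 to 3.95). The mean log2 fold of 0.53 ± 1.26 (SD, n = 2) was smaller than the spread between the hairpins. A gain of at least 2-fold with shRNA 2 and less than 2-fold with shRNA 1 was found in 7.04% of all genes tested.

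KCNQ1OT1, a paternally expressed and unspliced antisense RNA within the gene KCNQ1, silences neighbouring genes of its cluster in cis. KCNQ1OT1 (ENSG00000269821; chromosome 11, 2608328 to 2699994, minus strand; 1 annotated transcript) had 713 counts with shRNA 1, 527 with shRNA 2 and 347 in shControl, or 39.8, 30.6 and 22.9 TMM-scaled CPM. Both hairpin libraries were above the control by less than 2-fold, with ratios of 1.74 (interval 1.53 to 1.98) and 1.34 (interval 1.16 to 1.53). The hairpins differed by less than their mean log2 fold of 0.60 ± 0.27 (SD, n = 2), and edgeR's adjusted p was 0.691. KCNQ1, which lies across it on the plus strand, had 27, 94 and 18 counts in shRNA 1, shRNA 2 and shControl. The strand setting of the counting is not given in the sources used here, so reads of this sense and antisense pair may not be separated.

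CDKN1C and PHLDA2 are maternally expressed genes of the cluster that KCNQ1OT1 controls, and both restrain growth. CDKN1C (p57), an inhibitor of cyclin-dependent kinases (ENSG00000129757; chromosome 11, 2883213 to 2885881, minus strand), had 118, 105 and 84 counts in shRNA 1, shRNA 2 and shControl, or 6.59, 6.10 and 5.55 TMM-scaled CPM. Both of its ratios, 1.19 and 1.10, had intervals that hold 1 (0.890 to 1.59 and 0.817 to 1.48), so a difference was not detectable at this depth. PHLDA2, known for limiting placental growth (ENSG00000181649; chromosome 11, 2928273 to 2929455, minus strand), had 95, 68 and 97 counts, or 5.30, 3.95 and 6.41 TMM-scaled CPM. Its ratio was 0.828 with shRNA 1 (interval 0.617 to 1.11) and 0.617 with shRNA 2 (interval 0.445 to 0.849). The cluster thus held a non-coding RNA and coding genes whose mean log2 folds ran from −0.47 ± 0.29 for PHLDA2 through 0.19 ± 0.08 for CDKN1C to 0.60 ± 0.27 for KCNQ1OT1 (SD, n = 2 each). Less than 2-fold with both hairpins was the commonest pattern, at 73.5% of all genes tested.

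GRB10 encodes an adaptor that binds the insulin and IGF1 receptors and damps their signal, and its expressed allele differs between tissues. GRB10 (ENSG00000106070; chromosome 7, 50590063 to 50793462, minus strand; 26 annotated transcripts) had 209 counts with shRNA 1, 1038 with shRNA 2 and 601 in shControl, or 11.7, 60.3 and 39.7 TMM-scaled CPM. The control lay between the hairpin libraries. The level was 3.40-fold lower with shRNA 1 (ratio 0.294, interval 0.250 to 0.344) and 1.52-fold higher with shRNA 2 (interval 1.37 to 1.68). This was the widest spread between the hairpins among the 9 tested genes, with shRNA 2 over shRNA 1 at 5.17 (interval 4.45 to 6.03) and a mean log2 fold of −0.58 ± 1.67 (SD, n = 2). Of all genes tested, 2.25% were at least 2-fold lower with shRNA 1 and less than 2-fold away with shRNA 2.

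PEG3 and PEG10 are paternally expressed genes on different chromosomes with nearly the same pattern. PEG3, a large zinc finger protein gene (ENSG00000198300; chromosome 19, 56810083 to 56840728, minus strand), had 1555 counts with shRNA 1, 584 with shRNA 2 and 578 in shControl, or 86.8, 33.9 and 38.2 TMM-scaled CPM. The ratio was 2.27 with shRNA 1 (interval 2.06 to 2.51) and 0.889 with shRNA 2 (interval 0.791 to 0.999). PEG10, a gene derived from a retrotransposon and needed for the mouse placenta (ENSG00000242265; chromosome 7, 94656325 to 94669695, plus strand), had 3472, 1402 and 1448 counts, or 194, 81.5 and 95.7 TMM-scaled CPM. Its ratio was 2.03 with shRNA 1 (interval 1.91 to 2.16) and 0.852 with shRNA 2 (interval 0.791 to 0.917). In both genes the shRNA 1 library stood apart while shRNA 2 and shControl lay close together. Set against each other, shRNA 1 over shRNA 2 gave 2.56 for PEG3 (interval 2.32 to 2.82) and 2.38 for PEG10 (interval 2.24 to 2.53). The mean log2 folds, 0.51 ± 0.96 for PEG3 and 0.39 ± 0.88 for PEG10 (SD, n = 2 each), were smaller than the spread between the hairpins. At least 2-fold higher with shRNA 1 and less than 2-fold away with shRNA 2 held for 2.58% of all genes tested. With library totals as the scaling, which moved the median log2 fold of all genes to 0.14 with shRNA 1 and 0.24 with shRNA 2 against 0.01 and 0.04 with TMM, the shRNA 2 fold of PEG3 turned from −0.17 to 0.03. With DESeq2's size factors the shRNA 1 fold of PEG10 was 0.99, just under 2-fold.

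DLK1, a paternally expressed membrane protein of the delta-like family that can inhibit Notch signalling, shares its cluster with MEG3. DLK1 (ENSG00000185559; chromosome 14, 100725705 to 100738224, plus strand) had 0 counts with shRNA 1, 0 with shRNA 2 and 2 in shControl. All values were at or under a floor of 3 counts, so no fold is given, and it was the 1 gene of the set that did not pass the filter of a mean of at least 1 CPM. Of this pair, the non-coding RNA was thus counted in each library and the coding gene at most 2 times.

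**Figure D3:**
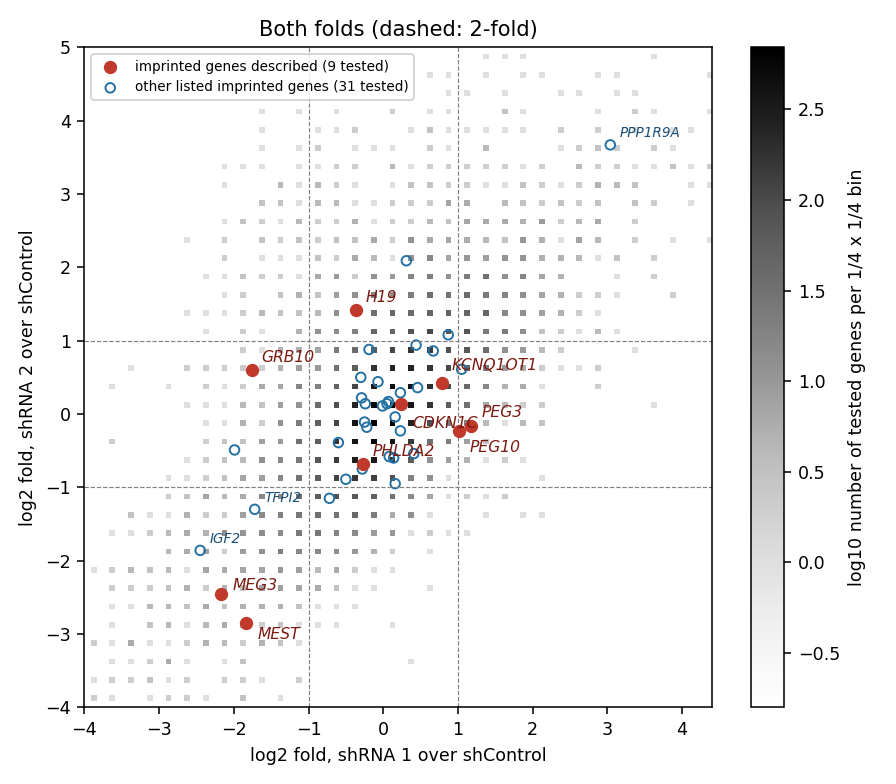
Log2 fold over shControl with shRNA 1 (horizontal) and shRNA 2 (vertical), with 9 imprinted genes as filled points, 31 other listed imprinted genes as open points and the number of all tested genes per bin in grey. MEG3 and MEST lie in the lower left corner beyond both dashed 2-fold lines, PEG3 and PEG10 lie side by side at the right, and H19 and GRB10 lie in the upper left. Both axes share the shControl library.

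Of 18 ratios over shControl, 2 for each of the 9 tested genes, 15 had a counting interval that excludes 1, against 66.6% of such ratios over all genes tested. The mean log2 fold was larger than its SD between the hairpins for MEG3, MEST, KCNQ1OT1, CDKN1C and PHLDA2, and smaller for H19, GRB10, PEG3 and PEG10. Both folds of a gene share the lone control library, so this SD holds none of the control's error. A mean above its SD is thus no sign of a change. For CDKN1C the counting intervals of both hairpins held 1, and for PHLDA2 that of shRNA 1 did. The median log2 fold over the 9 genes was −0.27 with shRNA 1 and −0.17 with shRNA 2, against 0.01 and 0.04 over all genes tested. The median of the genes' mean folds was 0.19 and their mean −0.39, so the sign of a single summary depended on how it was taken. Neither the coding nor the non-coding genes shared one direction: among the 3 non-coding RNAs MEG3 was lower, KCNQ1OT1 slightly higher and H19 split between the hairpins.

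Levels can be compared between genes only per length, and the length behind the deposited FPKM values was not the merged exon length. The length implied by count and FPKM matched the sum of all distinct annotated exons of GENCODE release 29, overlapping exons counted repeatedly, within 0.1% for 85.0% of 10207 genes with overlapping exons and at least 100 control counts, and the merged exon length for 0.0882%. The implied length was 5.18 times the merged length for H19, 3.78 times for PEG10, 1.63 times for MEG3, and equal to it for PHLDA2 and KCNQ1OT1. The ratio between libraries of any one gene does not depend on the length used.

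As CPM per kilobase of merged exons, PEG10 led with shRNA 1 at 29.4, followed by PEG3 at 9.01 and H19 at 6.11, and MEG3 was the lowest gene above the floor at 0.346. With shRNA 2, H19 led at 22.2, followed by PEG10 at 12.9 and GRB10 at 6.53, and MEG3 was again lowest above the floor at 0.295. For MEG3 the merged length was 23224 bases over 48 annotated transcripts, and which of them were expressed was not measured. The orders in all libraries hold for merged lengths only, and the intervals between neighbours take these lengths as exact. Some neighbours in these orders could not be separated by their counts. In shRNA 1 this held for H19 and PHLDA2 (ratio 1.09, interval 0.861 to 1.38) and for MEST and GRB10 (1.12, 0.888 to 1.42). In shRNA 2 it held for PHLDA2 and PEG3 (1.19, 0.913 to 1.53) and for KCNQ1OT1 and MEG3 (1.20, 0.978 to 1.49).

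By the authors' deposited FPKM the order in shControl ran PHLDA2 at 6.18, PEG10 at 3.49, MEST at 2.47, GRB10 at 2.02, PEG3 at 1.42, H19 at 1.38, MEG3 at 0.880, CDKN1C at 0.789, KCNQ1OT1 at 0.230 and DLK1 at 0.0174. As CPM per kilobase of merged exons in shControl, PEG10 led at 13.2, followed by H19 at 7.17, PHLDA2 at 6.18, MEST at 4.48, GRB10 at 3.74, PEG3 at 3.60, CDKN1C at 2.06, MEG3 at 1.43 and KCNQ1OT1 at 0.230. H19 thus stood sixth on the deposited scale and second on the merged one. In shControl the counts did not separate H19 and PHLDA2 (ratio 1.16, 0.922 to 1.47) or GRB10 and PEG3 (1.04, 0.924 to 1.16). KCNQ1OT1 lay above MEG3 with shRNA 1 (KCNQ1OT1 over MEG3 1.27, interval 1.06 to 1.53), while MEG3 lay above KCNQ1OT1 in shControl (MEG3 over KCNQ1OT1 6.21, interval 5.42 to 7.13).

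**Figure D4:**
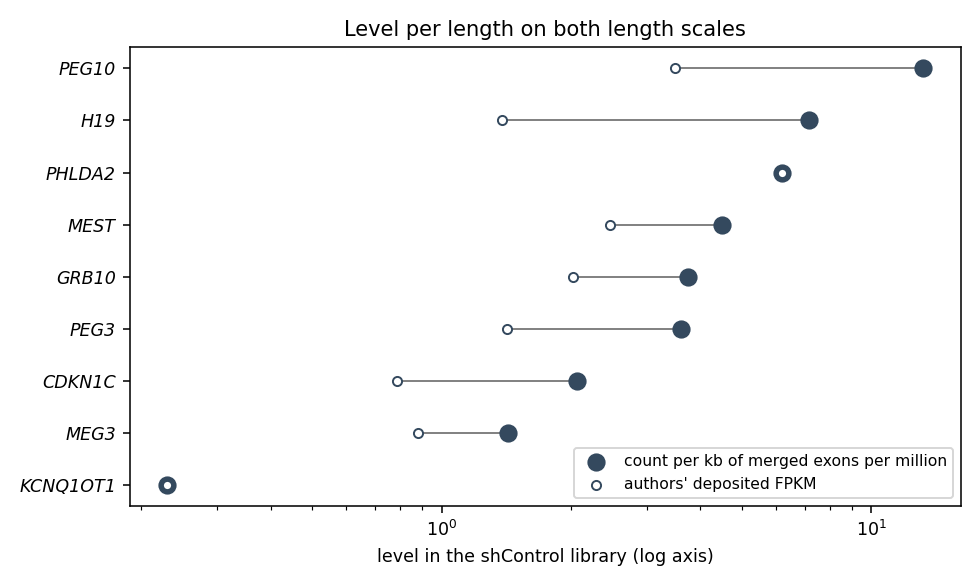
Level of each tested imprinted gene in the shControl library (log axis), as the authors' deposited FPKM (open points) and as CPM per kilobase of merged exons (filled points). H19 and PEG10 move furthest to the right, from 1.38 to 7.17 and from 3.49 to 13.2, while PHLDA2 and KCNQ1OT1 have the same value on both.

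Other genes of the same clusters and of other regions were followed through a list of 67 further imprinted genes. They are called imprinted from the list alone, as imprinting in these cells was not measured. Of the 67 genes 64 were in the table, 8 of these had no count in any library and 31 were tested. In the 31, 2 were lower by 2-fold or more with both hairpins (IGF2 and TFPI2) and 1 was higher by as much (PPP1R9A), against 4.50% and 5.29% of all genes. The filter took the mean over all libraries, so IGF2 passed it through shControl and PPP1R9A through the hairpin libraries, where each was high. None passed edgeR's test over all genes, and 4 of the 31 had an unadjusted p below 0.05, against 10.2% of all genes. The median log2 folds were 0.05 with shRNA 1 and 0.11 with shRNA 2, against 0.01 and 0.04 over all genes. In the chromosome 14 cluster no further gene was tested, and the non-coding MEG8 and MEG9 had 4, 1 and 10 counts and 4, 4 and 7 counts in shRNA 1, shRNA 2 and shControl.

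IGF2, the paternally expressed growth factor that shares enhancers with H19, had 11, 17 and 59 counts in shRNA 1, shRNA 2 and shControl, with log2 folds of −2.45 and −1.86 and an edgeR adjusted p of 0.326. H19 and IGF2 thus differed in pattern with shRNA 2, where H19 was 2.69-fold above the control and IGF2 at a ratio of 0.253 (interval 0.138 to 0.441). In the cluster of PEG10, TFPI2, a protease inhibitor gene, had 598, 770 and 1667 counts (log2 folds −1.72 and −1.30, adjusted p = 0.187 by edgeR). PPP1R9A, which encodes a neuronal actin-binding protein, had 103, 154 and 9 counts (3.04 and 3.67, adjusted p = 0.170 by edgeR), while SGCE, which lies head to head with PEG10, 0.116 kb away, had 840, 509 and 670 counts (0.08 and −0.58). PPP1R9A was thus higher with both hairpins, where PEG10 was 2-fold higher with shRNA 1 alone.

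Around KCNQ1OT1, none of 5 further tested genes was 2-fold lower or higher with both hairpins, against 4.50% and 5.29% of all genes tested. NAP1L4 had log2 folds of 0.16 and −0.04 and TSSC4 −0.29 and 0.22. Around MEST, COPG2, whose exons overlap those of MEST over 59 bases on the other strand, had 975, 1002 and 784 counts (0.07 and 0.17), and CPA4 had 0.16 and −0.95. In the region of PEG3, ZNF264 had −0.24 and 0.14, and the non-coding MIMT1 had 15, 11 and 3 counts. ZIM2, which shares 1264 exonic bases with PEG3 on the same strand, had 2, 1 and 2 counts, so reads of the pair may be shared. DDC, the other gene of the GRB10 domain, had 1, 2 and 0 counts. The chromosome 15 cluster had 0 counts at SNRPN, SNURF and NDN in all 3 libraries, while UBE3A had −0.01 and 0.11 and ATP10A −1.99 and −0.49. The span of SNURF lies within that of SNRPN, so reads of this pair may have been counted for neither gene. Among imprinted genes elsewhere GNAS had −0.50 and −0.89 and IGF2R, the receptor that removes IGF2, −0.60 and −0.39.

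The nearest tested genes on each side of the imprinted genes were read from the table's coordinates. Beside MEG3, BEGAIN (192 kb away) had log2 folds of −0.34 and 1.43 and PPP2R5C (901 kb away) −0.04 and −0.57, so neither had the fold of MEG3. Beside MEST, CEP41 had −0.10 and −0.03 and KLF14 0.44 and 0.94. On the 3′ side of H19 and on its strand, MRPL23-AS1, 5.24 kb away, had 10, 186 and 7 counts in shRNA 1, shRNA 2 and shControl (0.22 and 4.23), with the shRNA 2 library standing apart as it did for H19. Beside PEG3, ZNF835 had 0.62 and 2.52. Beside GRB10, FIGNL1 had 0.45 and 0.34, and COBL, an actin-nucleating protein gene 223 kb away, had 297, 273 and 20 counts (3.53 and 3.47, adjusted p = 0.0950 by edgeR). Beside CDKN1C and PHLDA2, SLC22A18 had −0.19 and 0.88. Within 500 kb of MEG3, 0 of 5 other tested genes were 2-fold lower with both hairpins, and within 500 kb of MEST 0 of 10. Over all genes tested the share was 4.50%, at which windows of so few genes often hold none.

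**Figure D5:**
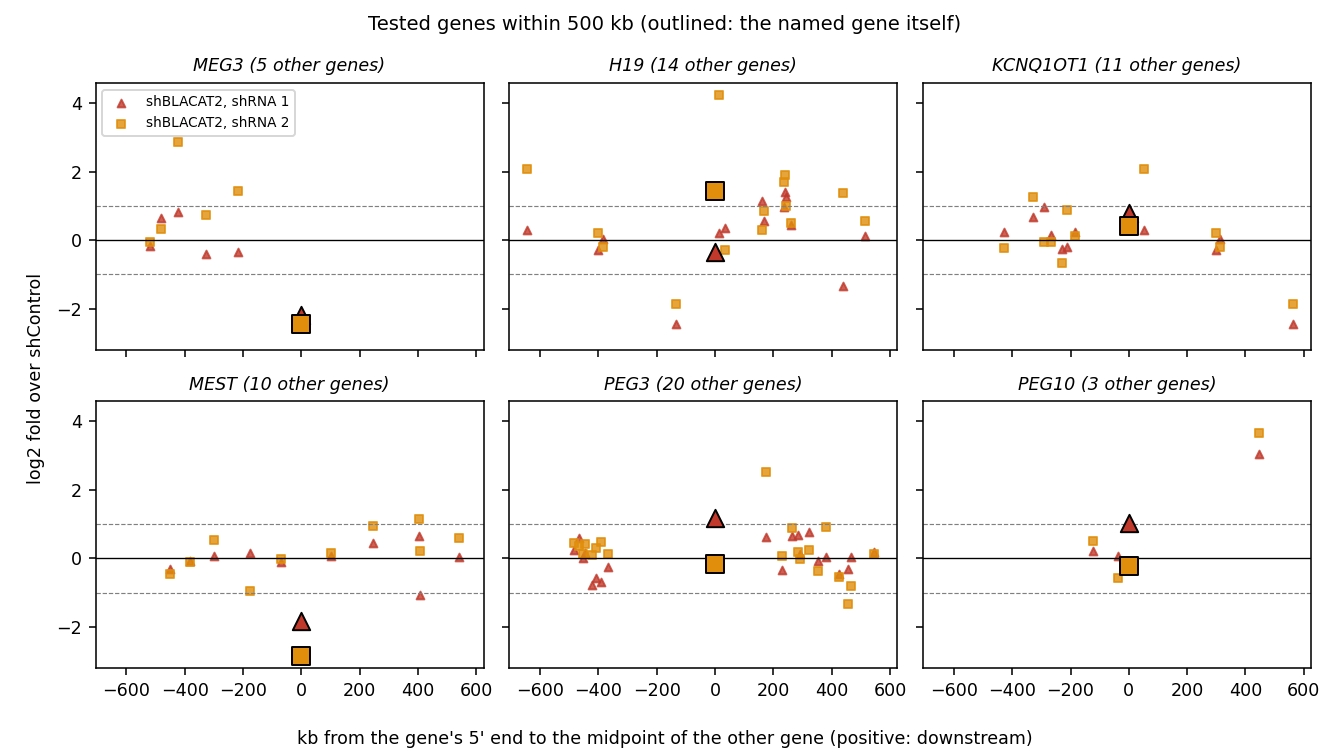
Log2 fold over shControl (vertical) of the tested genes whose span reaches within 500 kb of 6 imprinted genes, against the distance in kb from that gene's 5′ end to the midpoint of the other gene, with outlined points for the named gene itself. The points of MEG3 and MEST lie below those of all other genes in their windows, and MRPL23-AS1 stands at 4.23 with shRNA 2 next to H19.

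Of 25 genes of proteins that set and keep imprints 20 were tested, 0 were lower and 1 was higher by 2-fold or more with both hairpins, against 4.50% and 5.29% of all genes. None passed edgeR's test, and 1 had an unadjusted p below 0.05, against 10.2% of all genes. The median log2 folds were 0.04 and 0.07. NLRP7, an oocyte factor whose loss disturbs maternal imprints, was the 1 gene higher with both, at 40, 28 and 9 counts in shRNA 1, shRNA 2 and shControl (1.72 and 1.29). It was under 1 CPM in shControl and passed the filter through the hairpin libraries, where it was high. DNMT1, the maintenance DNA methyltransferase, had 3855, 3345 and 3216 counts (0.02 and −0.13), and its partner UHRF1 2454, 2338 and 2005 (0.05 and 0.04); both genes, and the following ones of this list, were chosen after their values were seen. TRIM28, the co-repressor that ZFP57 recruits, had −0.01 and −0.26, and ZFP57 itself had 10, 28 and 7 counts and was not tested. CTCF, which insulates IGF2 from the H19 enhancers on the maternal copy, had −0.08 and −0.16. Past 2-fold with 1 hairpin were TET1, an enzyme that oxidises methylated cytosine, at −0.89 and −1.74, the histone methyltransferase gene EHMT2 at −0.31 and −1.02, and ARID4A at 1.11 and 0.69.

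Of 28 genes whose products act with those of the imprinted set, 26 were tested, 3 were lower by 2-fold or more with both hairpins and 0 higher, against 4.50% and 5.29% of all genes. None passed edgeR's test over all genes, and 3 had an unadjusted p below 0.05, against 10.2% of all genes. IRS1, a substrate of the receptors that GRB10 binds, had log2 folds of −1.72 and −1.48. CDK6 had 2180, 1707 and 5065 counts in shRNA 1, shRNA 2 and shControl (−1.46 and −1.75). JARID2, a subunit of the Polycomb complex PRC2 that has been found bound to MEG3, had 1456, 1699 and 4254 counts (−1.79 and −1.51). The receptor genes IGF1R, at −0.95 and −0.45, and INSR, at 0.27 and 1.00, were chosen after their values were seen, as were 2 further genes. MEG3 is known to raise the p53 target GDF15, which had 375, 4049 and 299 counts (0.08 and 3.57), and MDM2 had −0.66 and 1.35. Both GDF15 and MDM2 were higher with shRNA 2 than with shRNA 1, and a link of their values to MEG3 was not tested.

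The genes most like MEG3 in both log2 folds, by Euclidean distance among 13867 other named genes tested, were SSTR2 (−2.19 and −2.52, distance 0.0662), SLC29A1 (−2.20 and −2.57, 0.111), SPOCD1 (−2.10 and −2.37, 0.116), FOXP1 (−2.05 and −2.47, 0.123) and EDNRA (−2.29 and −2.50, 0.127). Likeness over 2 folds that share 1 control library is a description, and 10 genes lay within a distance of 0.25.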

How the data were processed

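PolyA+ RNA of 3 UM-UC-3 libraries was sequenced after preparation with a TruSeq stranded mRNA kit, per the labels' protocols. The deposited table holds whole-number counts per gene and FPKM values made by the authors. TopHat2 2.0.9 and build hg38 were used, per the submitters' processing notes; the counting tool, its strand setting, the annotation and any filters are not given in the sources used. Near-identical copies and antisense pairs may share reads. The row of 1 gene, broken over several lines, was left out. Identifiers of 98.5% of 50867 genes were found in GENCODE release 29, which gave gene types, strands and exons.

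Counts were filtered to genes averaging 1 CPM or more and tested with edgeR 4.0.16 (quasi-likelihood, TMM factors 1.02, 1.07 and 0.924 for shRNA 1, shRNA 2 and shControl), after a check on simulated counts with known folds. DESeq2 1.42.0 (with the TMM factors) and limma 3.58.1, other scalings, filters and prior counts, and leaving out a hairpin were alternatives. Intervals at 95% are exact conditional binomial. A gene was counted as 2-fold lower or higher when each hairpin reached that size.

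The imprinted genes, lists and tests were chosen with earlier results of these data known. Named were all 10 genes, LINC00958, up to 4 genes per list at least 2-fold away with both hairpins (otherwise the 2 of highest level), the nearest tested genes, and the 5 genes most like MEG3. Other genes were chosen after their values were seen, including all markers. The window of 500 kb and the merged exon length were also chosen then.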

Additional observations from a re-analysis of the deposited data

How the results depend on the processing

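No direction of a mean fold of the 9 tested genes or of LINC00958 turned under any alternative with both hairpins. The number of genes past edgeR's test was 6, against 0 without a filter (1461 at an unadjusted p below 0.05), 0 with a mean of at least 5 CPM (1240), 0 with limma (1560) and 527 with DESeq2, where MEG3 and MEST made 2 of the set past the threshold instead of 0. The median of the genes' mean log2 folds, 0.19, was 0.36 with library totals and −0.17 without a filter, where DLK1 enters. With library totals edgeR's own log2 fold of GRB10 was 0.05 instead of −0.14. Of the further imprinted genes, 2 were 2-fold lower and 1 higher with both hairpins; library totals gave 2 higher, no filter gave 5 lower and 2 higher, and 5 CPM gave 1 lower. With either hairpin left out (values with no test), the folds of H19 (−0.36 without shRNA 2), GRB10 (0.57 without shRNA 1), PEG3 (−0.20 without shRNA 1) and PEG10 (−0.26 without shRNA 1) turned sign, 7 to 8 of 9 ratios had intervals that exclude 1, 1 to 2 of the set were 2-fold higher, 2 to 5 further imprinted genes were higher, and the median was −0.27 to −0.20. With both hairpins kept, 70 of 72 recomputed folds of single genes kept their direction and their side of the threshold. The exceptions were MEG3 and MEST, which passed with DESeq2. Part of this was fixed in advance, as the prior count does not enter edgeR's p-values and limma used the same log2 CPM. For DESeq2 the fold was the model's own, such as 0.79 for H19 where the mean was 0.53. No paired analysis was possible because shControl is 1 library with no number in the labels. Precision is limited by 1 control library and, for CDKN1C, PHLDA2 and MEST, by low counts (54 to 353). Counts of MEG3 in the hairpin libraries, 142 and 111, were as low.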

Other observations

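Some genes within 500 kb of the imprinted genes, chosen after their values were seen, had values of their own. WARS, a tryptophanyl-tRNA synthetase gene near MEG3, had log2 folds of 0.82 with shRNA 1 and 2.87 with shRNA 2, and CARS, the cysteinyl-tRNA synthetase gene near KCNQ1OT1, had 0.68 and 1.25. DUSP8, a MAP kinase phosphatase gene near H19, had −1.34 and 1.38, opposite signs as for H19 itself. CTSD, the lysosomal protease gene for cathepsin D in the same window, had 1.26 and 1.00.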
